A study of Mus musculus with 12 samples.

Results

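The Schlafen family was followed in OTII cells, donor CD4+ T cells that carry a transgenic T-cell receptor for an OVA peptide, after priming in recipients with or without IL-6. Its members were the rows of the count tables with the symbols Slfn1, Slfn2, Slfn3, Slfn4, Slfn5, Slfn8 and Slfn9, which are 7 of 40840 gene symbols. The family was chosen from the comparison of recipients on Day 3, in which Slfn5 stood among the genes lower in Il6-/- recipients with the smallest p. Values of that comparison are therefore given as a description, without a test. The donors were OTII mice on a C57BL/6 background and were the same in all 4 groups, and the recipients were congenic WT (C57BL/6J) or Il6-/- (B6.129S2-IL-6tm1Kopf/J) mice. All recipients were sensitized i.n. with HDM extract to which LPS had been added, together with LPS-free OVA, and the mLNs gave the sorted donor cells on Day 3 or on Day 5. The groups had 3 libraries for each recipient genotype and day, and 12 in all. The labels name blood as the tissue and leave out the LPS, so the tissue and the LPS follow the study's methods. Days are given as labelled, and the series text states that the manuscript counts them from a start 1 day apart. The age of the recipients and whether animals were pooled are not given in the sources used here. Nothing states that the replicates came from separate animals, so the p-values measure only the spread between these libraries, which may be technical.

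Schlafen genes are known as genes induced by type I interferon and as genes whose levels change when lymphocytes leave rest or mature. In mice they lie in a cluster, and the encoded proteins fall into short forms (Slfn1, Slfn2), intermediate forms (Slfn3, Slfn4) and long forms with a helicase-like region (Slfn5, Slfn8, Slfn9). Slfn2 is needed to keep T cells quiescent, and forced expression of Slfn1 slows the growth of thymocytes. Slfn4 is best known from cells of the myeloid lineage.

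In the GENCODE vM39 annotation of GRCm39, the 7 genes span 267 kb of chromosome 11, from 82842100 to 83109101, with 5 genes on the forward and 2 on the reverse strand. Slfn5 lies at chr11:82842100-82855666 at the start of the cluster, followed by Slfn9 at chr11:82868552-82882656 and Slfn8 at chr11:82892984-82911669, both on the reverse strand. Slfn2 lies at chr11:82955609-82961504 and Slfn1 at chr11:83007615-83013496. Slfn4 lies at chr11:83066012-83081042, and Slfn3 ends the cluster at chr11:83082123-83109101.

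RefSeq promoters, from 250 bases before to 50 bases after an annotated start, were found for all 7 members, with 2 for Slfn8. The table was built on GRCm38.p6, and each of its 8 sequences matched GRCm39 chromosome 11 exactly and once, which gave the coordinates below. Interferon-stimulated genes often carry a binding element for interferon-activated factors, and its core was searched as GAAANNGAAA on both strands. The core was present in promoters of 3 members, Slfn5, Slfn8 and Slfn9. Over the 27025 gene symbols of the table, taking the first promoter of each, 3.49% held it. The other interferon motif searched, the gamma-activated site TTCNNNGAA, was in none of the 8 promoters and in 8.47% of those. No match overlapped another. 4 promoters are shown: that of Slfn5, that of Slfn1, whose levels were most like those of Slfn5 among the members, and those of Slfn8 and Slfn9, which share much sequence but went opposite ways between the days. Capitals mark the core, read on either strand.
Slfn5 promoter, chr11:82842678-82842977, forward strand: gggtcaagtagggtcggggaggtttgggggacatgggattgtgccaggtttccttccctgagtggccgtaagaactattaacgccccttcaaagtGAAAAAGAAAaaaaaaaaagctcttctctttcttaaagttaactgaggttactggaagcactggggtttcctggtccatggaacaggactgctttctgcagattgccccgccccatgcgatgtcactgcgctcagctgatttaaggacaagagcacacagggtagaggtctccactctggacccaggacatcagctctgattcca
Slfn1 promoter, chr11:83007396-83007695, forward strand: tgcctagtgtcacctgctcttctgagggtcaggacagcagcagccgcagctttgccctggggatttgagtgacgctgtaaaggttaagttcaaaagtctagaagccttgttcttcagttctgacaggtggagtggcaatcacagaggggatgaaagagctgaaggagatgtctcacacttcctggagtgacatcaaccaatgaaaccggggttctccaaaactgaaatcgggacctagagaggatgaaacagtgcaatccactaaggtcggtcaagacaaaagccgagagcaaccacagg
Slfn8 promoter, chr11:82911587-82911886, reverse strand: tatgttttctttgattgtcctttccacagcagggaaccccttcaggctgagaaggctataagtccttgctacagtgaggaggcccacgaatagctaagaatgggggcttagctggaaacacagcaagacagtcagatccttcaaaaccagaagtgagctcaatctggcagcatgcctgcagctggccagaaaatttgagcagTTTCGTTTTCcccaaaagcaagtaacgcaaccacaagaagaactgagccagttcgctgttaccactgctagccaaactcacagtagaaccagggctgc
Slfn9 promoter, chr11:82882607-82882906, reverse strand: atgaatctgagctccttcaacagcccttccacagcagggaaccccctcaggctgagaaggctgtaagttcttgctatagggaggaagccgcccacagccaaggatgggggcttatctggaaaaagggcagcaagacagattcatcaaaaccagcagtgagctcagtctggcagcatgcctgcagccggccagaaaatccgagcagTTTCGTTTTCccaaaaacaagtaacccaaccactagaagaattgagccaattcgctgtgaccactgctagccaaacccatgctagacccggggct
The core began 155 bases before the RefSeq start of Slfn5, 48 bases before that of Slfn8 and 45 bases before that of Slfn9. The RefSeq start of Slfn5 differs from its GENCODE start at 82842100, and the Slfn5 promoter shown lies within the GENCODE span of the gene. The second Slfn8 start lay further along the same sequence, with the same copy of the core 136 bases before it. In a global alignment, the Slfn8 and Slfn9 promoters were identical at 247 of 305 positions (81%). The other 20 pairs among the first promoters of the 7 members were identical at 44.2% to 51.9% of positions. A match to these letters describes the sequence and not a bound site.

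The counts on genes summed to 16125947 to 26111657 in a library, and all levels below are CPM, counts relative to a library size scaled by TMM, as the mean ± SD of 3 libraries unless stated. T cell markers summed to 8284 to 9470 CPM in the WT and 7659 to 7731 CPM in the Il6-/- libraries of Day 3, and to 13722 to 14366 and 11991 to 13656 CPM on Day 5, with no overlap between recipients on either day. Markers of B cells were low and summed to 6.83 to 9.12 CPM in the WT libraries of Day 3 and to 14.1 to 14.98 CPM in the Il6-/- libraries of that day. Of these 10 genes, Ebf1 and Cr2 were at 0 in all WT libraries of Day 3 and Ebf1 and Ms4a1 in all Il6-/- libraries of that day. The difference in the sum came mostly from Cd22, at 0.778 CPM with WT and 6.61 CPM with Il6-/- recipients, whereas Cd79a was at 0.712 and 0.776 CPM and Pax5 at 0.841 and 0.171 CPM. Markers of myeloid and dendritic cells summed to 24.4 to 162 CPM over all libraries, with Clec9a at 0 in all 12. Of 14 such markers tested, 3 rose and 1 fell from Day 3 to Day 5 in WT recipients, beside 29.5% and 27.1% of all genes (edgeR). In Il6-/- recipients 10 rose and 0 fell, beside 30.4% and 30.1% of all genes. The median log2 fold changes of these markers were 0.94 and 1.53. CD8 T and NK cell markers summed to 56.8 to 86.0 CPM, with Klra8 at 0 in 12 of 12 libraries. Nearly all of this sum came from Cd8b1, with group means of 62.7 to 74.7 CPM. Cd8a had group means of 0.0653 to 1.04 CPM and Klrc1 of 0.0347 to 1.33 CPM. In bulk RNA, fewer cells that express a gene and less RNA per cell cannot be told apart.

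Of the 7 members, 6 passed the filter on low counts and entered the test among 13570 genes. Slfn4 did not. The 7 genes together were at 690 ± 8.84 CPM with WT and 561 ± 40.6 CPM with Il6-/- recipients on Day 3, and at 1163 ± 49.1 and 1154 ± 62.1 CPM on Day 5. Slfn2 alone made up 67.5% to 76.7% of the members' reads in a library.

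**Figure D1:**
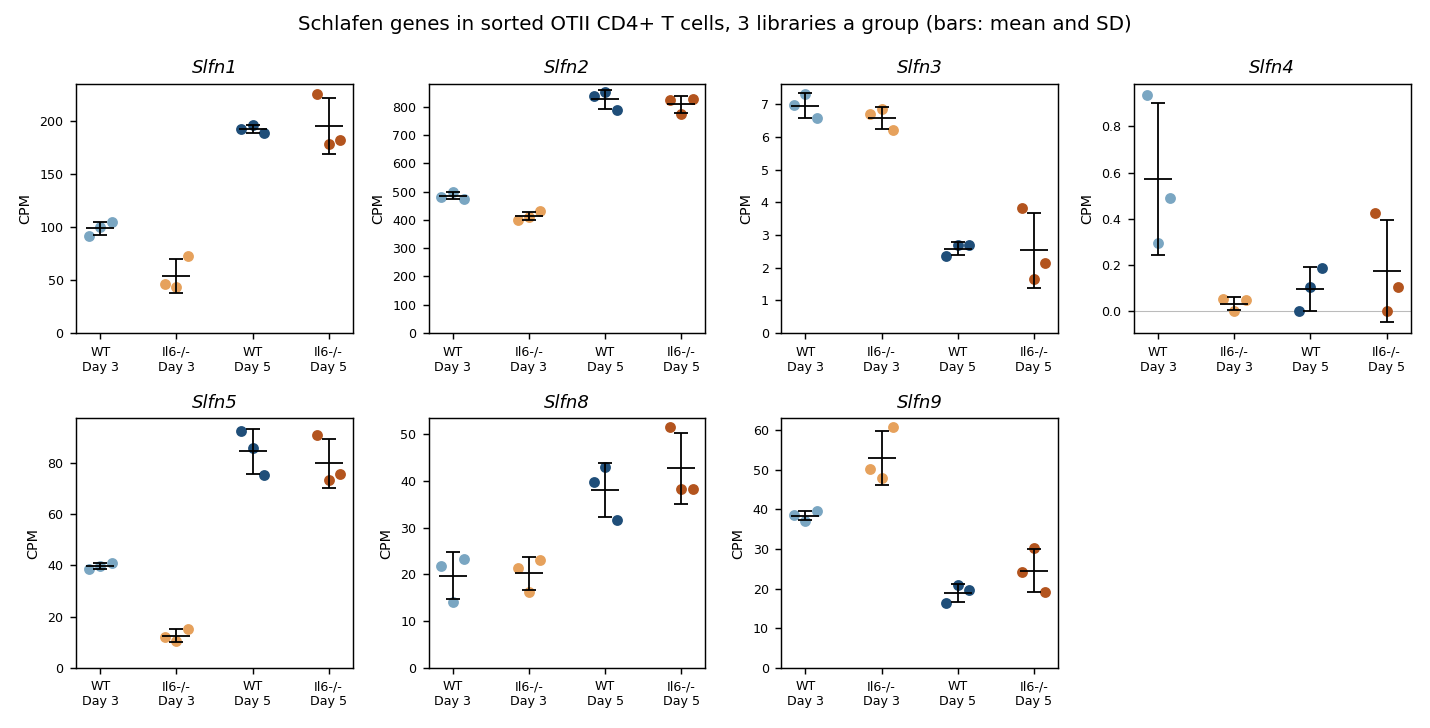
CPM of each of the 7 Schlafen genes (linear axes, 1 panel per gene) in the 4 groups of recipients, with 1 point per library and the mean and SD of 3 libraries as bars. On Day 3 the Il6-/- points of Slfn5 lie between 10.4 and 15.3 CPM and the WT points between 38.6 and 41.1, whereas on Day 5 the points of both recipients share the range from 75.1 to 90.8 CPM.

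Per kilobase of exon, Slfn2 had the highest level of the members in all 4 groups and Slfn1 the next, and the libraries of these genes did not overlap within any group. In WT recipients on Day 3, Slfn2 was at 244 and Slfn1 at 48.9 CPM per kb. They were followed by Slfn5 at 6.14, Slfn9 at 5.80 and Slfn8 at 4.79 CPM per kb, and the libraries of neighbours in this order overlapped. Slfn3, at 1.05, and Slfn4, at 0.130 CPM per kb, came last and apart from each other. In Il6-/- recipients on Day 3 Slfn5, at 1.94 CPM per kb, came below Slfn9 at 7.99 and Slfn8 at 4.91 CPM per kb, with no overlap between neighbours. On Day 5 Slfn5 was the third again, at 13.04 CPM per kb in WT and 12.3 in Il6-/- recipients. Slfn8 was at 9.25 and 10.4 CPM per kb, apart from Slfn5 in WT and overlapping it in Il6-/- recipients. Slfn9 was at 2.86 and 3.699 CPM per kb and Slfn3 at 0.390 and 0.383 CPM per kb on Day 5. Counted per kilobase of 50-base exon positions that occur once in the genome, Slfn9 (7.21 CPM per kb) stood above Slfn5 (6.87 CPM per kb) in WT recipients on Day 3, again with overlapping libraries. By that measure Slfn5 and Slfn8 overlapped in WT recipients on Day 5 as well. Per kilobase of the longest transcript, Slfn5 lay apart from Slfn9 in WT recipients on Day 3.

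Reads that map to more than 1 place were not counted, so sequence shared between members lowers their counts. Of the 50-base positions within exons, 99.4% occurred once in the genome for Slfn1, 95.8% for Slfn5 and 95.2% for Slfn2. The share was 89.2% for Slfn4, 84.1% for Slfn9, 83.8% for Slfn8 and 83.1% for Slfn3. Slfn8 and Slfn9 shared 371 positions, Slfn8 shared 423 with the neighbouring Slfn10, and Slfn3 and Slfn4 shared 228. Strands were not told apart, and exons of the antisense transcript Slfn5os overlap 19.8% of the Slfn5 exon bases. Slfn5os was counted as a gene of its own and had at most 3 counts in a library. Reads ambiguous between genes, 1.96% to 2.28% of a library, were counted for none. Reads over the bases shared by Slfn5 and Slfn5os may be among them. Antisense transcripts overlap 26.7% of the exon bases of Slfn8. They were not among the counted genes, so sense and antisense reads of Slfn8 cannot be told apart.

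Slfn5, a long member that has been described as an interferon-induced nuclear protein, was the gene from which the family was chosen. On Day 3, its level was 38.6, 39.7 and 41.1 CPM in the libraries of WT recipients and 12.04, 10.4 and 15.3 CPM in those of Il6-/- recipients. The groups were far apart, and the WT libraries lay close together. The means were 39.8 ± 1.26 and 12.6 ± 2.45 CPM, a log2 fold change (log2FC) of −1.66 (standard error (SE) 0.13), or 3.15-fold lower in Il6-/- recipients. On Day 5, Slfn5 was at 92.5, 85.7 and 75.1 CPM in WT and at 90.8, 73.1 and 75.7 CPM in Il6-/- recipients. The groups overlapped on that day.

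Slfn1, a short member, had the next largest difference on Day 3. Its level was 92.1, 99.8 and 105 CPM in WT and 46.5, 43.5 and 72.4 CPM in Il6-/- recipients, so the third Il6-/- library lay between the other Il6-/- libraries and the WT ones. The log2FC was −0.87 (SE 0.15). On Day 5, Slfn1 was at 192, 197 and 189 CPM in WT and at 226, 179 and 182 CPM in Il6-/- recipients, with overlap.

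Slfn2, the member tied to T cell quiescence, was at 482, 500 and 476 CPM in WT and at 401, 412 and 430 CPM in Il6-/- recipients on Day 3. The groups did not overlap, but the difference was small (log2FC −0.23, SE 0.06). On Day 5, Slfn2 was at 838, 852 and 789 CPM in WT and at 824, 775 and 828 CPM in Il6-/- recipients, with overlap.

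Slfn9, a long member on the reverse strand, went the other way on Day 3. It was at 38.6, 37.2 and 39.5 CPM in WT and at 50.3, 47.8 and 60.8 CPM in Il6-/- recipients, with no overlap (log2FC 0.46, SE 0.14). On Day 5, it was at 16.4, 20.9 and 19.6 CPM in WT and at 24.1, 30.2 and 19.3 CPM in Il6-/- recipients. Of the Il6-/- libraries, the third lay within the WT range on Day 5.

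Slfn8, the neighbour of Slfn9 on the same strand, overlapped between recipients on both days. On Day 3 it was at 21.8, 14.1 and 23.3 CPM in WT and at 21.4, 16.3 and 23.1 CPM in Il6-/- recipients (log2FC 0.04, SE 0.19). On Day 5 it was at 39.8, 42.9 and 31.7 CPM in WT and at 51.6, 38.3 and 38.4 CPM in Il6-/- recipients. In this gene the spread within a group was larger than the difference between recipients on both days.

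Slfn3, an intermediate member, was low and overlapped between recipients too. On Day 3 it was at 6.98, 7.32 and 6.57 CPM in WT and at 6.71, 6.84 and 6.21 CPM in Il6-/- recipients (log2FC −0.08, SE 0.25). On Day 5 it was at 2.34, 2.70 and 2.68 CPM in WT and at 3.81, 1.64 and 2.13 CPM in Il6-/- recipients. The widest spread was that of the Il6-/- libraries on Day 5.

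Slfn4, the member best known from myeloid cells, had almost no reads. It had 24, 6 and 9 counts in the WT libraries and 1, 0 and 1 count in the Il6-/- libraries on Day 3. On Day 5, it had 0, 2 and 4 counts in WT and 8, 0 and 2 counts in Il6-/- recipients. Over the summed reads of a group, its rate on Day 3 was 18.6 times as high in WT as in Il6-/- recipients. The exact 95% interval, 4.80 to 159, covers counting error only and not the spread between libraries. It describes the comparison that chose the family and is no test, and 24 of the 39 WT counts came from 1 library. The rate of Slfn4 was 5.87 times as high in WT recipients on Day 3 as on Day 5 (interval 2.47 to 16.97). Within WT recipients on Day 3, the library with 24 counts was also that with the highest sum of myeloid and dendritic cell markers, 75.1 CPM, against 50.1 and 24.4 CPM in the libraries with 6 and 9 counts. The Il6-/- libraries of Day 3 had sums of 27.8, 54.9 and 48.0 CPM, with 1, 0 and 1 count. On Day 5, the sums were 90.1, 68.4 and 54.5 CPM in Il6-/- recipients, with 8, 0 and 2 counts. They were 69.2, 37.5 and 162 CPM in WT recipients, the last the highest of all, with 0, 2 and 4 counts. The part of such cells in these counts was not tested.

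In the Day 3 comparison as a whole, 4 of the 6 tested members passed an FDR of 0.05 (edgeR), with Slfn9 higher and Slfn1, Slfn2 and Slfn5 lower in Il6-/- recipients, beside 13.7% of all genes tested. The same 4 genes had no overlap between the recipients, beside 36.2% of all genes. Since this comparison chose the family, nothing is read from these counts. The sums of T cell and of B cell markers given above did not overlap between the recipients on that day either, and their part in these differences was not tested.

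On Day 5, a comparison the choice of the family did not use, no member passed the test. Of the 6 members tested, 0 passed an FDR of 0.05 (edgeR's quasi-likelihood test), beside 4.61% of all genes, and 1 of them, Slfn9, had an unadjusted p under 0.05. DESeq2 and limma-voom called 0 as well, beside 1127 and 503 of 13570 genes. The libraries of the recipients overlapped for all 6, whereas they did not for 19.6% of all genes. For Slfn5 the log2FC of Il6-/- against WT was −0.08 (SE 0.12, FDR = 0.78), and the 95% interval of its fold was 0.789 to 1.13. For Slfn1 the log2FC was 0.02 (SE 0.15, FDR = 0.96), with an interval of 0.817 to 1.26 for its fold. The interval was narrowest for Slfn2, at 0.891 to 1.08, and widest for Slfn3, at 0.657 to 1.48. Slfn8 had a log2FC of 0.16 (FDR = 0.69), with an interval of 0.853 to 1.47. Slfn9 had the largest difference, with a log2FC of 0.37 (SE 0.15, FDR = 0.18 in edgeR) and an interval of 1.04 to 1.61, and did not pass. The neighbouring Slfn10-ps, a pseudogene that shares sequence with Slfn8 and Slfn9, had a log2FC of 0.46 (FDR = 0.056 in edgeR).

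The difference between the log2FC of Day 3 and that of Day 5 contains the Day 3 values that chose the family, and so it is an estimate with no test. It was −1.58 (SE 0.18) for Slfn5, −0.89 (SE 0.21) for Slfn1 and −0.20 (SE 0.09) for Slfn2. For Slfn9, whose mean was higher in Il6-/- recipients on either day, it was 0.09 (SE 0.21). It was −0.13 (SE 0.27) for Slfn8 and −0.06 (SE 0.37) for Slfn3.

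**Figure D2:**
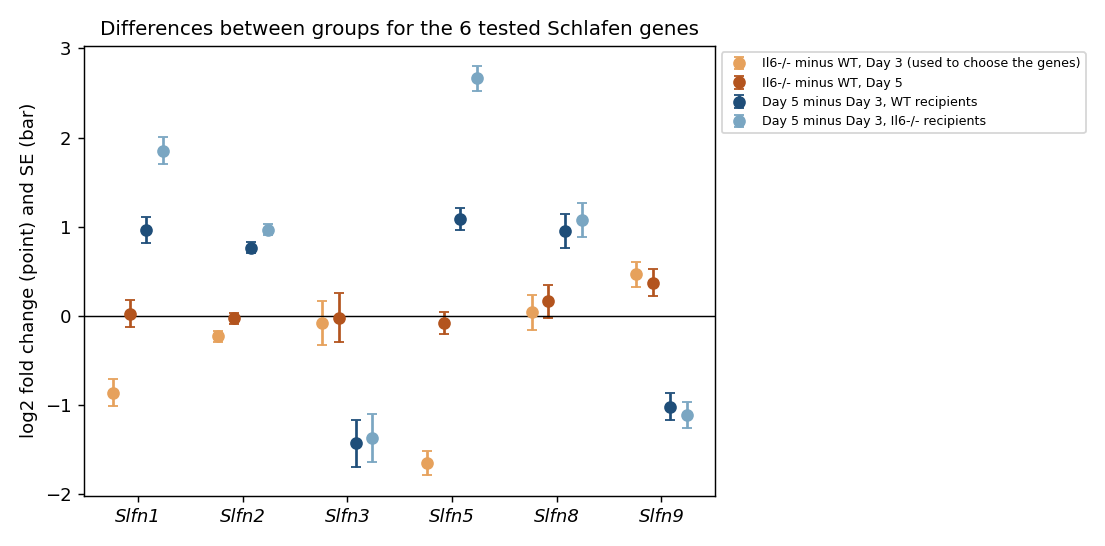
Log2FC and SE of the 6 tested Schlafen genes from the edgeR model for the recipient comparison on each day and the day comparison in each recipient. On Day 5 the recipient difference lies between −0.08 and 0.37 for every gene, whereas between the days Slfn1, Slfn2, Slfn5 and Slfn8 lie above 0 and Slfn3 and Slfn9 below 0 in either recipient.

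Between the days, the family split in 2 directions. In WT recipients, Slfn1, Slfn2, Slfn5 and Slfn8 rose from Day 3 to Day 5 and Slfn3 and Slfn9 fell. All 6 passed an FDR of 0.05, the 4 that rose beside 29.5% and the 2 that fell beside 27.1% of all genes that passed in that direction, and the libraries of the days did not overlap for any of them, beside 63.3% of all genes. With a change of at least 2-fold required too, 3 members passed (Slfn3, Slfn5 and Slfn9), beside 22.1% of all genes. In Il6-/- recipients the directions were the same gene by gene, with 4 members higher (beside 30.4% of all genes) and 2 lower (beside 30.1%), no overlap between the days for the 6 (beside 65.8%), and a change of at least 2-fold in 5 (beside 25.9%), all but Slfn2. Of all genes, 56.7% passed between the days in WT and 60.5% in Il6-/- recipients, and the 6 of 6 members are to be read against these shares. The comparisons of the days also share their Day 3 libraries with the Day 3 recipient comparison that chose the family. The counts of members include Slfn5, whose low Day 3 level in Il6-/- recipients was used for that choice. The libraries of the days also stood apart in reads assigned to no gene (11.7% to 12.9% on Day 3 and 15.2% to 17.3% on Day 5). They did so too in the share of the 10 genes with most counts (7.15% to 7.74% and 9.59% to 11.8%) and in the sums of T cell markers. The sums of myeloid and dendritic cell markers overlapped between the days in either recipient. Of the 14 such markers tested, 3 rose and 1 fell in WT and 10 rose and 0 fell in Il6-/- recipients. The part of these in the day changes was not tested.

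Of the members that rose, Slfn5 gained 2.12-fold in WT recipients (log2FC 1.09, SE 0.12, FDR = 3.3e-06 in edgeR). In Il6-/- recipients it was 6.33-fold higher on Day 5 than on Day 3 (log2FC 2.66, SE 0.14), a value that rests on the low Day 3 level by which it was chosen. Slfn1 rose 1.95-fold in WT (FDR = 6.1e-05 in edgeR) and 3.61-fold in Il6-/- recipients (FDR = 1.1e-07 in edgeR). These 2 genes thus started from a lower level in Il6-/- recipients on Day 3 and had overlapping levels on Day 5. The Il6-/- value of Slfn1 rests on the same Day 3 libraries as that of Slfn5, and its FDR is to be read with that limit. Slfn2 rose 1.70-fold in WT (FDR = 1.5e-07 in edgeR) and 1.95-fold in Il6-/- recipients (FDR = 1.9e-08 in edgeR). Slfn8 rose 1.93-fold in WT (FDR = 5.8e-04 in edgeR) and 2.11-fold in Il6-/- recipients (FDR = 1.7e-04 in edgeR).

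Of the members that fell, Slfn3 was 2.70-fold lower on Day 5 in WT (FDR = 2.8e-04 in edgeR) and 2.59-fold lower in Il6-/- recipients (FDR = 3.8e-04 in edgeR). Slfn9 was 2.03-fold lower in WT (FDR = 3.3e-05 in edgeR) and 2.16-fold lower in Il6-/- recipients (FDR = 1.0e-05 in edgeR). Slfn9 and Slfn8, whose promoters shown above are 81% identical, thus moved in opposite directions between the days in either recipient. Slfn10-ps had a log2FC of −0.17 (FDR = 0.28) in WT and rose in Il6-/- recipients (log2FC 0.44, FDR = 0.0082 in edgeR).

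The members differed in how closely they followed Slfn5. Over all 12 libraries, the log2 CPM of Slfn1 had a Pearson r of 0.98 with Slfn5 and ranked 9 of 13569 genes, and Slfn2 had 0.93 and ranked 396. Slfn8 had an r of 0.77 (rank 2503), whereas Slfn3 had −0.76 (rank 10483) and Slfn9 −0.89 (rank 12492). The 12 libraries fall into groups, so these values describe the group levels and carry no p. The 5 genes most like Slfn5 by this measure were Gimap3 (0.99), Selenop, Rgs14, Flot1 and Slc9a9 (0.98 to 0.99). Gimap3, which encodes a GTPase of lymphocytes, was at 678 ± 27.8 CPM with WT and 414 ± 29.9 CPM with Il6-/- recipients on Day 3, and at 1047 ± 25.7 and 1016 ± 63.8 CPM on Day 5. Slc9a9, which encodes a sodium-proton exchanger of endosomes, was at 58.6 ± 2.84 and 24.3 ± 4.52 CPM on Day 3 and at 117 ± 7.49 and 123 ± 14.5 CPM on Day 5.

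To leave out the group levels, the deviation of each library from its group mean was compared between Slfn5 and the other members (5 relations, exact two-sided permutation of the libraries within groups, 1296 arrangements). Slfn1 followed Slfn5 from library to library, with r = 0.889 and Spearman rho = 0.853 over 12 libraries (exact p = 0.00309 and 0.00463; p = 0.0154 and 0.0231 adjusted over the 5 relations). Slfn8 had r = 0.661 and rho = 0.741 (exact p = 0.0131 and 0.01, adjusted p = 0.0328 and 0.0250). Without the 2 libraries farthest from the median of Slfn5, r was 0.736 for Slfn1, 0.596 for Slfn2, 0.585 for Slfn3, 0.581 for Slfn8 and −0.252 for Slfn9, so that Slfn8 did not stand apart from Slfn2 and Slfn3 there. Since same-numbered libraries deviated together on Day 5, the test was repeated with both Day 5 groups reordered together (216 arrangements). The Day 3 groups, where this relation was weaker, were still reordered separately. Slfn1 then had an exact p of 0.00463 for r and for rho, the smallest these can give (adjusted p = 0.0231), whereas Slfn8 had an adjusted p of 0.0578 for r and 0.0347 for rho (exact p = 0.0231 and 0.0139) and no longer passed by r. The relation did not pass for Slfn2 (r = 0.606, rho = 0.587, exact p = 0.117 and 0.130, adjusted p = 0.195 and 0.217), Slfn3 (r = 0.291, rho = 0.0909, exact p = 0.543 and 0.847, adjusted p = 0.653 and 0.847) or Slfn9 (r = 0.173, rho = 0.147, exact p = 0.653 and 0.710, adjusted p = 0.653 and 0.847). Among all 13569 other genes the median r with Slfn5 was 0.00, and 0.162% of genes had an r as high as that of Slfn1 and 3.79% as high as that of Slfn8. The points of a library share its depth, its scaling and its cells. The largest deviations of Slfn5 were those of Il6-/- recipients on Day 3, where the third library was the highest of its group and the second the lowest in Slfn1, Slfn5, Slfn8 and Slfn9.

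**Figure D3:**
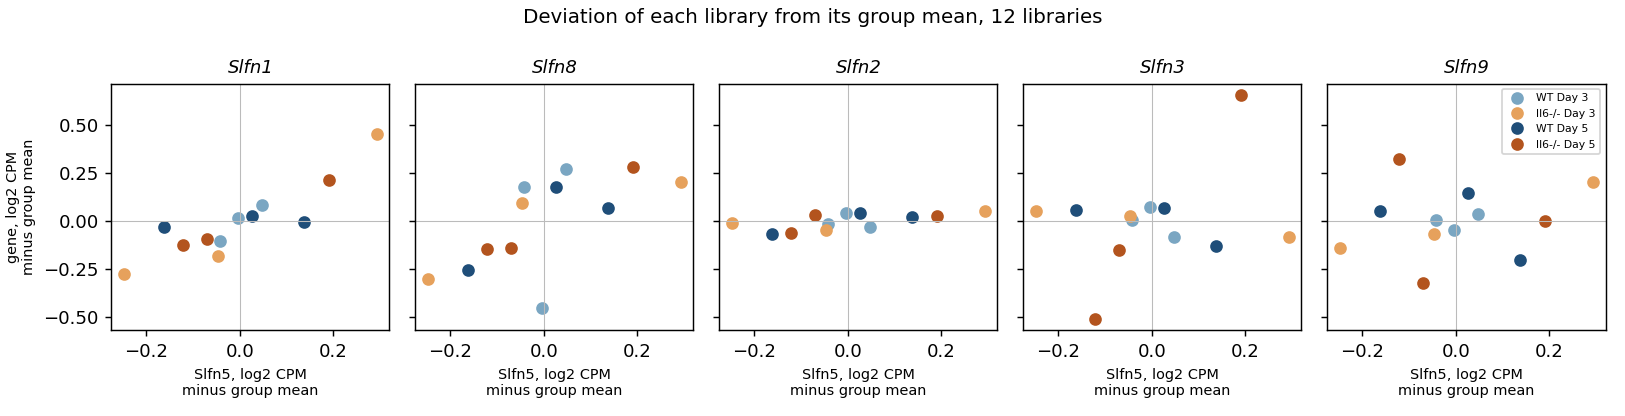
Deviation of log2 CPM from the group mean for Slfn1, Slfn8, Slfn2, Slfn3 and Slfn9 (vertical, 1 panel each) against that of Slfn5 (horizontal), with 1 point for each of 12 libraries, colored by group. The points of Slfn1 run along a rising line (r = 0.889), those of Slfn2 stay near 0 on the vertical axis, and those of Slfn9 show no order (r = 0.173).

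The genes around the cluster were looked at in the same way. In the annotation, 43 genes without a Schlafen symbol have a body within 200000 bases of a member. Of these, 19 were found in the count tables by symbol and 11 were tested. Schlafen symbols outside the 7 members were left out of these counts, among them Slfn10-ps (FDR = 0.056 on Day 5 in edgeR). On Day 5, 0 of the 11 passed an FDR of 0.05 between recipients (edgeR), beside 4.61% of all genes. Their smallest FDR was that of Ap2b1, a subunit of a clathrin adaptor, with a log2FC of 0.28 (FDR = 0.086 in edgeR). On Day 3, 1 of the 11 passed, beside 13.7% of all genes. This was Nle1, a notchless homolog that acts in ribosome assembly, which was higher in Il6-/- recipients (log2FC 0.81, SE 0.13). Between the days, 2 of the 11 rose and 2 fell in WT recipients, and 2 rose and 3 fell in Il6-/- recipients, beside 29.5% and 27.1% of all genes in WT and 30.4% and 30.1% in Il6-/- recipients. The 2 that rose were Gm20234, a long noncoding RNA antisense to Slfn2, with a log2FC of 1.41 in WT and 1.65 in Il6-/- recipients (FDR = 2.2e-04 and 7.0e-05 in edgeR), and Gm11423 (1.62 and 1.09, FDR = 0.0028 and 0.029 in edgeR). The exons of Gm20234 lie within an intron and beyond the end of Slfn2, and without strand its reads and unspliced reads of Slfn2 cannot be told apart. Lig3, which encodes a DNA ligase, fell in WT and in Il6-/- recipients (log2FC −0.52 and −0.88, FDR = 0.0034 and 3.3e-05 in edgeR), and so did Ap2b1 (log2FC −0.55 and −0.31, FDR = 9.4e-05 and 0.0066 in edgeR).

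**Figure D4:**
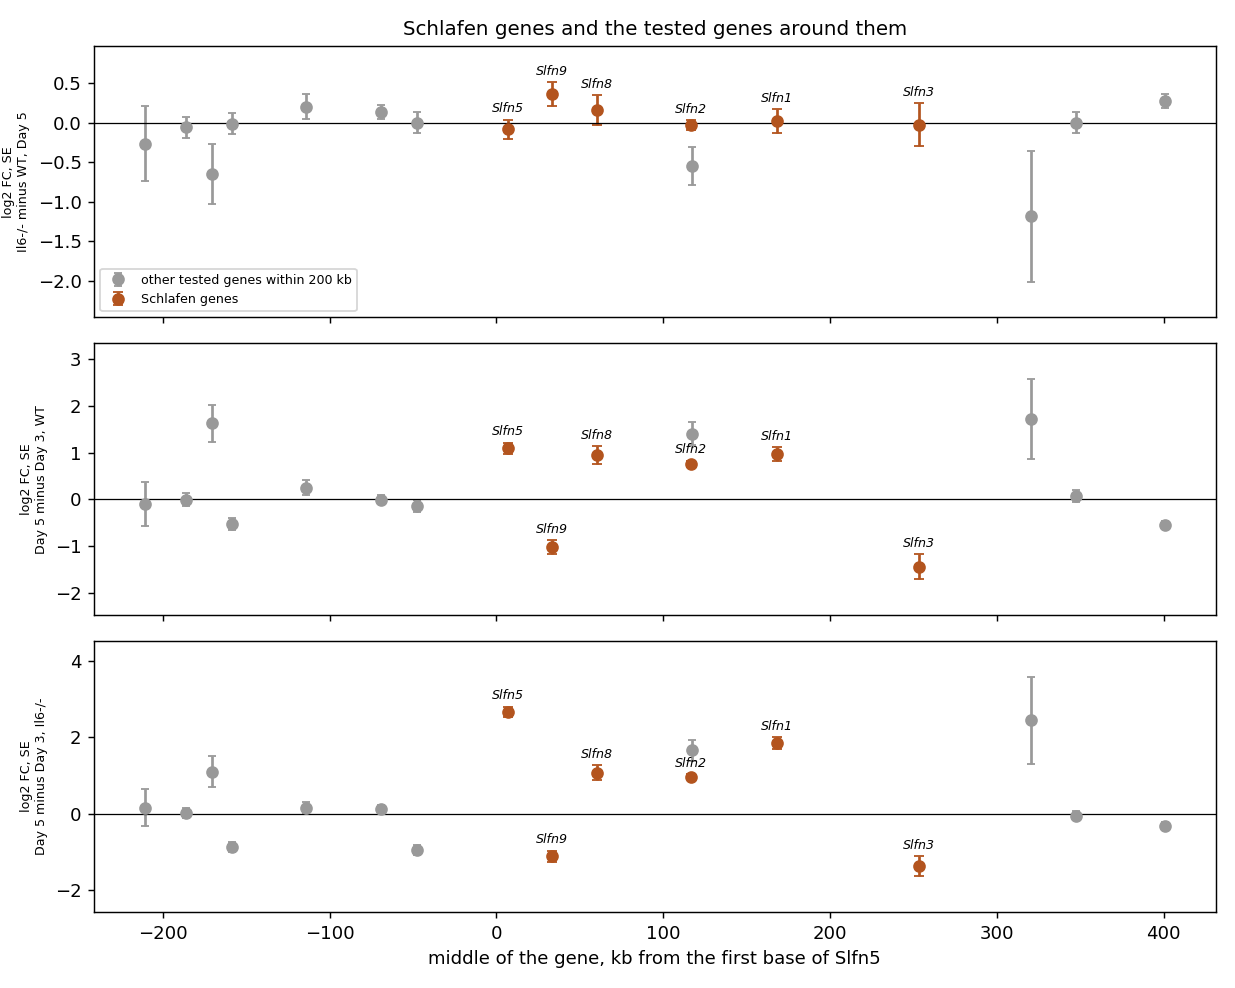
Log2FC and SE (vertical) of the 6 tested members and the 11 tested genes without a Schlafen symbol within 200 kb. The horizontal axis is the distance of the middle of the gene from the first base of Slfn5 in kb. The panels show the recipient comparison on Day 5, where no gene passed, and the day comparison in each recipient, where Slfn9 and Slfn3 lie below 0 and the other members above 0.

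Genes induced by type I interferon were mostly lower in Il6-/- recipients on Day 3. Of 33 tested genes on a list that holds no Schlafen gene, 0 were higher and 23 lower on that day (edgeR, FDR under 0.05), beside 6.19% of all genes lower. Their median log2FC was −0.80, and that over all genes tested was 0.01. The lowest were Rsad2 (log2FC −2.48), which encodes the antiviral protein viperin, and Ifit3b (−2.22), and the highest Ifi44 (0.67) and Bst2 (0.34), which encodes tetherin. On Day 5, 0 of the 33 were higher and 2 lower, beside 3.35% of all genes, with a median of −0.24. These were Oas1a (log2FC −0.70, FDR = 0.037 in edgeR), a sensor of double-stranded RNA, and Rtp4 (−0.72, FDR = 0.047 in edgeR). In the other direction, Oas3 had a log2FC of 0.42 (FDR = 0.31) and Parp9 one of 0.09 (FDR = 0.63 in edgeR). Between the days, 6 rose and 7 fell in WT recipients, beside 29.5% and 27.1% of all genes, with a median of 0.13. In either direction, 39.4% of the list thus passed in WT recipients, beside 56.7% of all genes. In Il6-/- recipients 18 rose and 2 fell, beside 30.4% and 30.1% of all genes, with a median of 0.47. The medians over all genes were 0.09 in each. The 6 Schlafen genes had a median of 0.86 in WT and 1.02 in Il6-/- recipients.

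**Figure D5:**
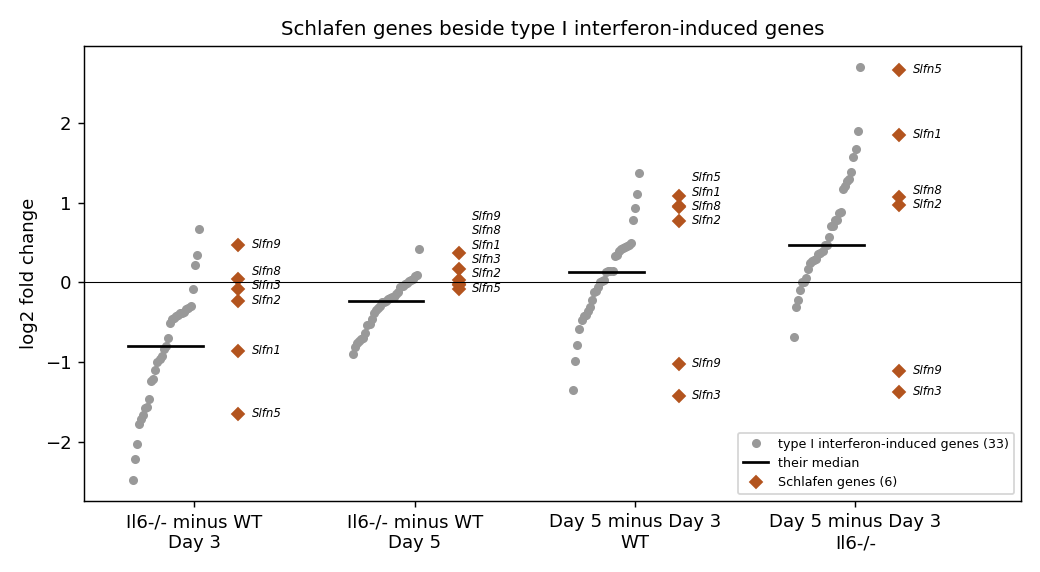
Log2FC (vertical) of 33 type I interferon-induced genes (gray, in order, with their median as a line) and of the 6 tested Schlafen genes (brown) in the 4 comparisons. On Day 3 the list has a median of −0.80 with Slfn5 and Slfn1 below it and Slfn9 above 0, and between the days in Il6-/- recipients Slfn3 and Slfn9 lie below every list gene.

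Of 7 components of the type I interferon pathway, 4 were lower (beside 6.19% of all genes) and 0 higher (beside 7.52%) in Il6-/- recipients on Day 3. Irf7, a factor that amplifies interferon production and is itself induced by interferon, had the lowest log2FC (−1.53), followed by Stat2 (−0.56), and Tyk2 (0.05) and Ifnar1 (−0.25) the highest. On Day 5, 1 of the 7 was higher, the kinase Tyk2 (log2FC 0.36, FDR = 0.045 in edgeR), beside 1.27% of all genes, and 0 were lower, beside 3.35%. Irf9 (0.12, FDR = 0.48), Irf7 (−0.23, FDR = 0.27) and Jak1 (−0.18, FDR = 0.28) did not pass in edgeR. Between the days, 4 rose and 0 fell in WT (beside 29.5% and 27.1% of all genes) and 7 rose and 0 fell in Il6-/- recipients (beside 30.4% and 30.1%). By its means, Irf7 was at 26.8 CPM in Il6-/- and 77.7 CPM in WT recipients on Day 3, and at 75.7 and 89.0 CPM on Day 5.

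Of 17 genes tied to T cell quiescence, the role ascribed to Slfn2, 1 was higher and 6 were lower in Il6-/- recipients on Day 3, beside 7.52% and 6.19% of all genes, with a median log2FC of −0.32. The lowest were Klf2 (−0.86) and Klf4 (−0.80) and the highest Pdcd4 (0.34) and Foxp1 (0.25). On Day 5, 0 were higher and 3 lower (beside 1.27% and 3.35% of all genes), among them Peli1 (log2FC −1.29, FDR = 0.0025 in edgeR), a ubiquitin ligase, and Btg1 (−1.25, FDR = 0.0052 in edgeR), which restrains proliferation. In the other direction, Tsc22d3 (log2FC 0.22, FDR = 0.62) and Btg2 (0.06, FDR = 0.87) did not pass in edgeR. Between the days 14 rose and 0 fell in WT recipients (median 0.83) and 13 rose and 0 fell in Il6-/- recipients (median 0.58), beside 29.5% and 30.4% of all genes that rose. Pdcd4, which inhibits translation, rose by a log2FC of 1.55 in WT and 1.22 in Il6-/- recipients (FDR = 3.2e-08 and 1.3e-07 in edgeR), beside 0.77 and 0.97 for Slfn2.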

How the data were processed

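Donor OTII cells were sorted on Day 3 and Day 5 and their poly(A) RNA was sequenced as single-end reads. Per the labels and methods, the authors used Trim Galore 0.4.4 for trimming, STAR 2.5.2a for alignment to GRCm39 and HTSeq 0.6.1p1 for unstranded counting on genes. Their annotation release is not given in the sources used here. The deposited values used here are the raw, unscaled counts of each library by gene symbol; a deposited table of log2 CPM was not used.

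The analysis ran in edgeR 4.0.16 under R 4.3.3: filterByExpr on 4 groups, TMM, 1 coefficient per group over 12 libraries, quasi-likelihood F test, and Benjamini-Hochberg adjustment over 13570 genes (threshold 0.05). The estimated biological coefficient of variation was 0.132. CPM use TMM-scaled library sizes, and log2 CPM for correlations had a prior count of 2. Levels per kb divide CPM by exon length in GENCODE vM39. The scripts were tested on simulated data. Alternatives were RLE and no scaling, no low-count filter or one that keeps genes above 1 CPM in 3 libraries, DESeq2 1.42.0, limma-voom (limma 3.58.1), the replicate number as a block, the 2 groups alone, a 2-fold limit and leaving out each library.

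Same-numbered libraries deviated together between recipients on Day 5 (r = 0.243, 0.206 and 0.129). On Day 3 the r was much smaller but positive (0.0325 to 0.0599). On both days, the same-numbered WT library was the closest to each Il6-/- library. Between days, the r of same-numbered libraries was −0.0710 to 0.0707. With 3 libraries against 3, an exact permutation test of 1 gene cannot go below p = 0.1. The family and the gene lists were chosen with earlier results of these data known. Genes named were the members, list genes (for each direction the 2 with the smallest p on Day 5, and on Day 3 the 2 highest and 2 lowest log2FC), genes within 200000 bases of a member and the 5 genes most correlated with Slfn5. Slfn10-ps and Slfn5os are named because they share sequence or exons with members.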

Additional observations from a re-analysis of the deposited data

How the results depend on the processing

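The 6 tested members kept their side of the threshold in every alternative run for the Day 5 comparison and for both day comparisons (120 values each), and their direction in the day comparisons. On Day 5, where no member was called, the log2FC of Slfn5 went from −0.18 to 0.01 and that of Slfn1 from −0.09 to 0.11 when libraries were left out, and Slfn9 stayed between 0.22 and 0.52. Within the Day 3 comparison, which is descriptive, the log2FC of Slfn5 went from −1.82 to −1.54 and that of Slfn1 from −1.13 to −0.73 when libraries were left out, both lowest without the third Il6-/- library, and that of Slfn2 from −0.23 to −0.29 without scaling. Leaving out each of the 12 libraries gave 2 to 4 members called on Day 3 beside 4 in all libraries (2 without any Day 3 library other than the third Il6-/- one, and 3 without that), 0 on Day 5, and 6 in each day comparison. The shares of all genes called in these fits are not given here. A 2-fold limit left 3 of the 6 members in the WT day comparison, because the changes of Slfn1, Slfn2 and Slfn8 were smaller than that. With the replicate number as a block, which pairs the Day 5 libraries, 0 members were called on Day 5, 6 in each day comparison and 4 on Day 3, so the block changed no other call. Reordering the Day 5 groups together was an alternative chosen after seeing the data. The within-group relation of Slfn8 with Slfn5 (r = 0.661) then no longer passed by r but still passed by rho (exact permutation, adjusted p = 0.0578 and 0.0347). The other relations kept their side of the threshold. Without scaling, the median log2FC of all genes between the days in Il6-/- recipients went from 0.09 to 0.24. Without the low-count filter Slfn4 could be fitted: its log2FC was 0.81 on Day 5 (FDR = 0.82 in edgeR), and between the days −2.54 in WT (FDR = 0.056 in edgeR) and 2.14 in Il6-/- recipients (FDR = 0.23 in edgeR), values that depend on the prior count at such low counts. Per kilobase, another length measure was tried for levels, and counting unique 50-base positions was chosen after seeing the data. The depth limits Slfn4 most, with 0 to 24 counts in a library.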
